A study of Mus musculus with 6 samples.

Results

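The transcripts described here are those of 6 genes of the STAT family, Stat2, Stat3, Stat4, Stat5a, Stat5b and Stat6, taken by gene symbol from the 40303 gene models of the deposited table, 1 model each. All 6 passed the filter on low values. The table holds messenger RNA of 6 subcutaneous tumours of CT26, a mouse colon carcinoma line, from 6 BALB/c hosts whose genotype the labels give as WT. The PEG-glutaminase group was 3 mice injected into the peritoneum with 50 IU per kg of PEGylated glutaminase, an enzyme that breaks down circulating glutamine. The vehicle group was 3 mice given phosphate-buffered saline with 10% glycerol. Every mouse had 2 injections, at intervals of 3 days, and gave 1 library of whole tumour tissue. Age and sex are not used here. A library therefore mixes cancer cells with the host's immune and stromal cells, and fewer cells of a type cannot be told apart from less RNA per cell.

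STAT proteins carry the signal of cytokines from the cell membrane to the nucleus. A cytokine brings receptor chains together, Janus kinases bound to these chains phosphorylate a STAT on a tyrosine, and the STAT then pairs up, enters the nucleus and binds DNA. STAT2 works in the interferon pathway, where it works with IRF9 in a complex that binds the interferon-stimulated response element. STAT3 serves interleukin 6 and related cytokines, STAT4 serves interleukin 12 in T and NK cells, STAT5A and STAT5B serve interleukin 2, growth hormone and prolactin, and STAT6 serves interleukin 4 and interleukin 13. Activity of these proteins is set by phosphorylation, which RNA sequencing does not measure.

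2 of the 6 genes, Stat2 and Stat4, hold the core of an interferon-stimulated response element near an annotated start, and these stretches are shown. A link between the core and the levels below was not tested. The core searched was TTTC, any 2 bases and TTTC or, on the other strand, GAAA, any 2 bases and GAAA, in windows from 250 bases before to 50 bases after each start (RefSeq, build GRCm38.p6). It was present in a window of 3.99% of 27025 genes. The capitals mark the match. The first sequence is chr10:128270248-128270547, plus strand, with the match beginning 222 bases before the start. The second is the downstream one of the 2 annotated Stat4 starts, chr1:52007990-52008289, plus strand, with the match beginning 97 bases before the start.
Stat2: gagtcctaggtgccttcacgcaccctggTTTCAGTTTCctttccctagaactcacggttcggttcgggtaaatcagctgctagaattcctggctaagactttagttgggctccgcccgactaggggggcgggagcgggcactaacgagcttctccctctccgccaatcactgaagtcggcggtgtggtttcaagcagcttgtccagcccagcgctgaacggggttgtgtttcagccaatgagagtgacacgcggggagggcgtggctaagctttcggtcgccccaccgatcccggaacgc
Stat4: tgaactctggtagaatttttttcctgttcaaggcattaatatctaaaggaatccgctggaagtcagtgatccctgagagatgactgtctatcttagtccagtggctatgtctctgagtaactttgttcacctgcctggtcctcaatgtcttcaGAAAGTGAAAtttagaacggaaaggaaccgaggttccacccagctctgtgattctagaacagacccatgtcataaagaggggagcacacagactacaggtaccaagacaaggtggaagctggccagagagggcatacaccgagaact

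The windows of Stat3, Stat5a, Stat5b and Stat6 held no match to this core. The gamma-activated site TTCNNNGAA, the palindrome that STAT pairs bind, was in none of the windows of the 6 genes and in a window of 9.55% of all genes. For comparison, 8 of 15 genes listed as STAT2 partner or targets and present in the window table held the interferon core, among them Isg15, a ubiquitin-like protein made in response to interferon. Of 18 STAT3 targets with a window 2 held a gamma-activated site, Icam1 and Socs3, the feedback inhibitor induced by STAT3. That share of 11.1% is near the 9.55% of all genes. The Isg15 stretch below is chr4:156200866-156200905, minus strand, and shows the middle one of 3 overlapping matches, beginning 72 bases before the start. The Socs3 stretch is chr11:117969497-117969535, minus strand, with the match beginning 154 bases before the start.
Isg15: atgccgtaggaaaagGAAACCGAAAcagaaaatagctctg
Socs3: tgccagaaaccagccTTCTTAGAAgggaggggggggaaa

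The recovered reads per library numbered 16455052 to 16791267 in the PEG-glutaminase group and 17380129 to 18051480 in the vehicle group. Library PEG-glutaminase 2 stood apart from the other libraries of its group in several marker lists. Its 23 T and NK cell markers summed to 2283 normalized counts, against 4193 and 7346 in PEG-glutaminase 1 and 3 and 8137 to 9050 in the vehicle libraries, and none of these markers was at 0 in any library. Its skeletal muscle markers summed to 1710 normalized counts, against 201 and 138 in PEG-glutaminase 1 and 3 and 290 to 1133 in the vehicle libraries. Its fibroblast and endothelial markers, at 76421 and 6279, were the highest of the 6 libraries, and its macrophage and monocyte markers, at 61084, lay between those of PEG-glutaminase 1 and 3. Library vehicle 1 stood apart in 10 keratinocyte markers, which summed to 70.3 to 92.6 normalized counts in the PEG-glutaminase libraries and to 113 to 8320 in the vehicle libraries. No marker list for the cancer cells themselves was used.

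In the PEG-glutaminase tumours Stat2, Stat3 and Stat4 averaged lower than in the vehicle tumours, while the treated means of Stat5a, Stat5b and Stat6 stood at 97.7%, 106% and 105% of the vehicle means. With limma, which fits all 13557 tested genes together, 0 of the 6 passed an adjusted p of 0.05, where 0.0369% of all tested genes passed (0.00738% higher and 0.0295% lower). edgeR on the recovered reads called 0 of the 6 and 0 of all tested genes. DESeq2 called 1 of the 6, against 3.59% of all tested genes (1.59% higher and 2.00% lower). At an unadjusted p under 0.05, 2 of the 6, Stat2 and Stat3, were lower and 0 were higher, against 9.51% of all tested genes lower and 8.92% higher. The groups of 3 did not overlap in 4 of the 6, with Stat2 and Stat3 lower and Stat5b and Stat6 higher, where 25.8% of all tested genes did not overlap. Fold changes below are on the scale of log2(normalized count + 1), PEG-glutaminase minus vehicle, and the ± after a log2 difference is its standard error.

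**Figure D1:**
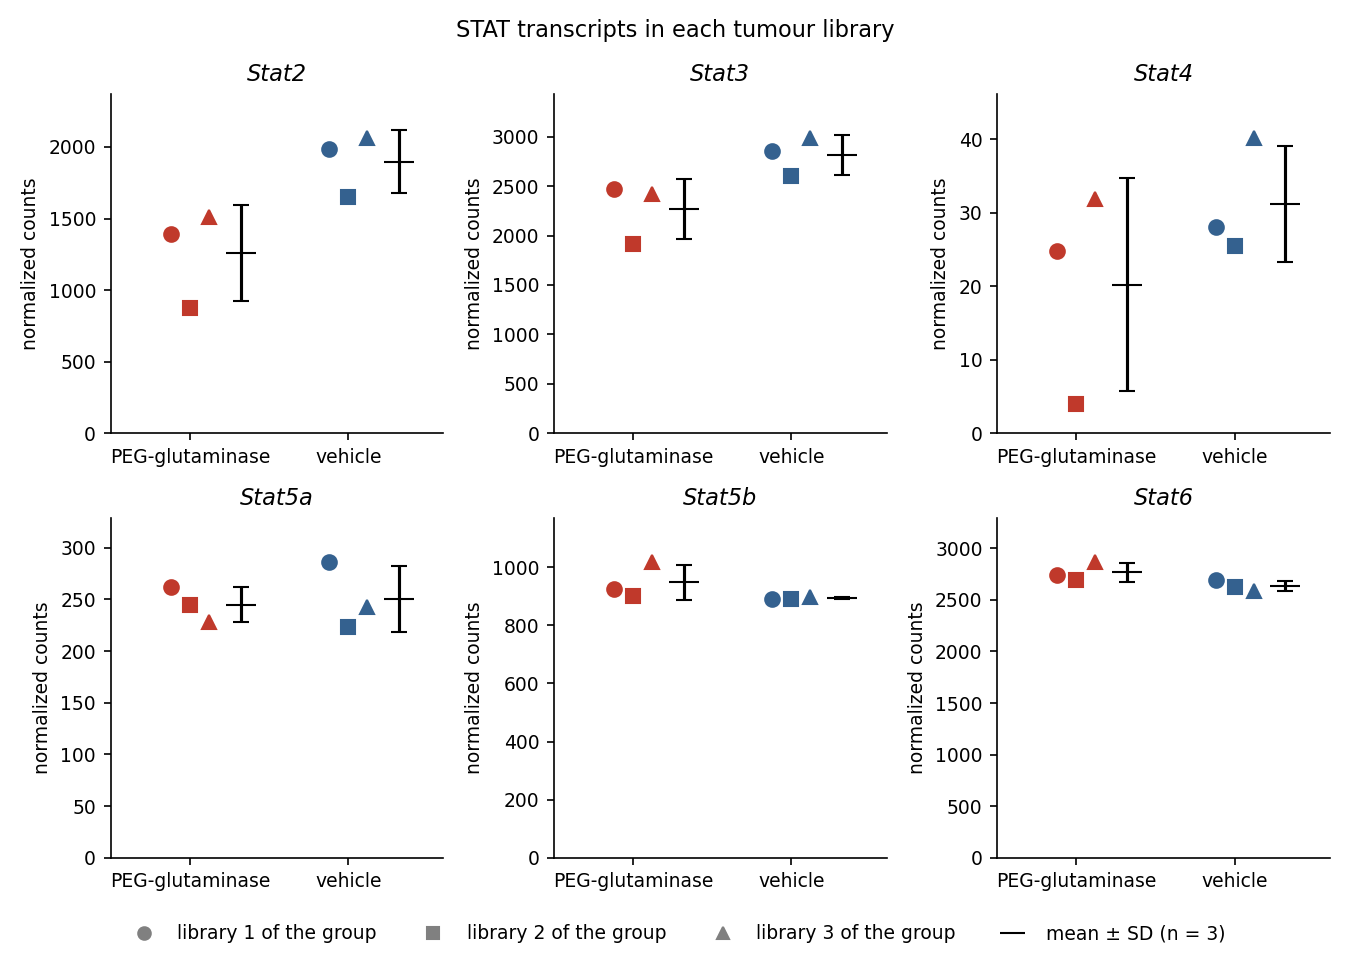
Normalized counts (vertical axes, each from 0) of the 6 STAT transcripts in the 3 PEG-glutaminase libraries (red, left) and the 3 vehicle libraries (blue, right), with the mean and SD of each group in black. Stat2 and Stat3 lie lower in every PEG-glutaminase library than in any vehicle library, and Stat4 is at 3.96 normalized counts in PEG-glutaminase 2.

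Stat2, the interferon-pathway member, had 1392, 878 and 1512 normalized counts in PEG-glutaminase 1, 2 and 3, against 1983, 1648 and 2064 in vehicle 1, 2 and 3. All 3 PEG-glutaminase libraries were below all 3 vehicle libraries, and PEG-glutaminase 2 was the lowest by a wide gap. The means were 1261 ± 337 in PEG-glutaminase tumours and 1898 ± 221 in vehicle tumours (SD, n = 3 each), so that the treated mean was 33.6% lower. The log2 difference was -0.62 ± 0.22, with a 95% interval of -1.14 to -0.10 (limma, adjusted p = 0.22). DESeq2 on the recovered reads called Stat2 lower at -0.59 (DESeq2, adjusted p = 0.0300). Without PEG-glutaminase 2 the log2 difference was -0.38 ± 0.11 (limma, adjusted p = 0.195), and the groups still did not overlap. Across the leave-one-out fits the limma adjusted p ran from 0.136 to 0.363.

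Stat3, the mediator of interleukin 6 signals that many tumours use for growth and immune evasion, had 2468, 1919 and 2417 normalized counts in PEG-glutaminase 1, 2 and 3, against 2855, 2599 and 2990 in vehicle 1, 2 and 3. The order of the libraries resembled that of Stat2, with PEG-glutaminase 2 lowest and vehicle 3 highest, and the groups did not overlap. The means were 2268 ± 304 in PEG-glutaminase tumours and 2815 ± 199 in vehicle tumours (SD, n = 3 each), a treated mean 19.4% lower. The log2 difference was -0.32 ± 0.11, with a 95% interval of -0.56 to -0.08 (limma, adjusted p = 0.183), and DESeq2 gave an adjusted p of 0.12. Without PEG-glutaminase 2 it was -0.20 ± 0.09 (limma, adjusted p = 0.373), and the groups still did not overlap.

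Stat4, which drives interferon gamma production in T and NK cells, was the rarest of the 6. It had 24.9, 3.96 and 31.9 normalized counts in PEG-glutaminase 1, 2 and 3, against 28.0, 25.5 and 40.2 in vehicle 1, 2 and 3. The groups overlapped, since PEG-glutaminase 3 was above 2 of the vehicle libraries, and the low mean of the PEG-glutaminase group came from library 2, where 4 reads were counted (exact 95% Poisson interval 1.09 to 10.2 reads, counting error only). The other libraries held 24 to 41 reads. The means were 20.2 ± 14.5 in PEG-glutaminase tumours and 31.2 ± 7.87 in vehicle tumours (SD, n = 3 each). The log2 difference was -0.97 ± 0.69, with a 95% interval of -2.57 to 0.63 (limma, adjusted p = 0.469), and without PEG-glutaminase 2 it was -0.12 ± 0.32 (limma, adjusted p = 0.902). The count models gave smaller differences, of -0.63 with edgeR and -0.63 with DESeq2 (adjusted p of 0.57 and 0.631). The same library had the lowest summed level of T and NK cell markers, with Cd3e of the T cell receptor complex at 111, 11.9 and 148 normalized counts in PEG-glutaminase 1, 2 and 3, against 191, 162 and 249 in vehicle 1, 2 and 3. Not every marker was lowest there. Cd4 had 25.9, 49.5 and 30.9 normalized counts in PEG-glutaminase 1, 2 and 3, against 59.9, 35.3 and 71.6 in vehicle 1, 2 and 3. The mean log2 deviation of the 23 markers was -0.39, -1.74 and 0.35 in PEG-glutaminase 1, 2 and 3, against 0.43, 0.58 and 0.76 in vehicle 1, 2 and 3, and the part of these cells in the Stat4 values was not tested. In GENCODE M21, 28.6% of the 50-base windows and 24.1% of the 100-base windows of the longest Stat4 transcript also occur in Gm28177. This gene model stood at 1.37 normalized counts in PEG-glutaminase tumours and 2.28 in vehicle tumours, so the Stat4 count is uncertain to that extent.

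Stat5b and Stat5a, the neighbouring paralogs, differed in whether their groups overlapped. The log2 ratio of Stat5a to Stat5b differed by -0.11 between groups, with overlap (exact permutation p = 0.6), so their differences were not told apart. Stat5b had 927, 901 and 1017 normalized counts in PEG-glutaminase 1, 2 and 3, against 892, 891 and 897 in vehicle 1, 2 and 3. The 3 vehicle libraries were nearly equal, and each PEG-glutaminase library was above them, PEG-glutaminase 2 by only a few counts. The means were 948 ± 61.2 in PEG-glutaminase tumours and 893 ± 3.05 in vehicle tumours (SD, n = 3 each), and the log2 difference was 0.08 ± 0.08, with a 95% interval of -0.10 to 0.27 (limma, adjusted p = 0.598). Stat5a had 262, 245 and 228 normalized counts in PEG-glutaminase 1, 2 and 3, against 286, 224 and 242 in vehicle 1, 2 and 3. The groups overlapped fully for Stat5a. Its means were 245 ± 16.8 in PEG-glutaminase tumours and 251 ± 31.9 in vehicle tumours (SD, n = 3 each), and its log2 difference was -0.03 ± 0.13, with a 95% interval of -0.32 to 0.27 (limma, adjusted p = 0.927). Its sign turned when vehicle 1 was left out (0.07) or PEG-glutaminase 3 was left out (0.02). Parts of these transcripts are alike: 10.8% of the 50-base windows of the longest Stat5a transcript also occur in Stat5b, and 11.8% of those of Stat5b occur in Stat5a (GENCODE M21). For windows of 100 bases the shares were 2.85% and 5.18%. The treatment of such reads by the counting step was not stated, so the split between the paralogs is uncertain to that extent.

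Stat6, the mediator of interleukin 4 and interleukin 13 and of the alternative activation of macrophages, had 2741, 2694 and 2865 normalized counts in PEG-glutaminase 1, 2 and 3, against 2689, 2630 and 2589 in vehicle 1, 2 and 3. The groups did not overlap, but PEG-glutaminase 2 and vehicle 1 were nearly equal. The means were 2766 ± 88.6 in PEG-glutaminase tumours and 2636 ± 50.3 in vehicle tumours (SD, n = 3 each). The log2 difference was 0.07 ± 0.07, with a 95% interval of -0.09 to 0.23 (limma, adjusted p = 0.62), an interval that spans 0.94 to 1.17 times the vehicle level. Stat6 overlaps Nab2 in the RefSeq annotation, at 2041 normalized counts in PEG-glutaminase tumours and 2121 in vehicle tumours, and without a stated strand setting reads from the shared stretch cannot be assigned to either.

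**Figure D2:**
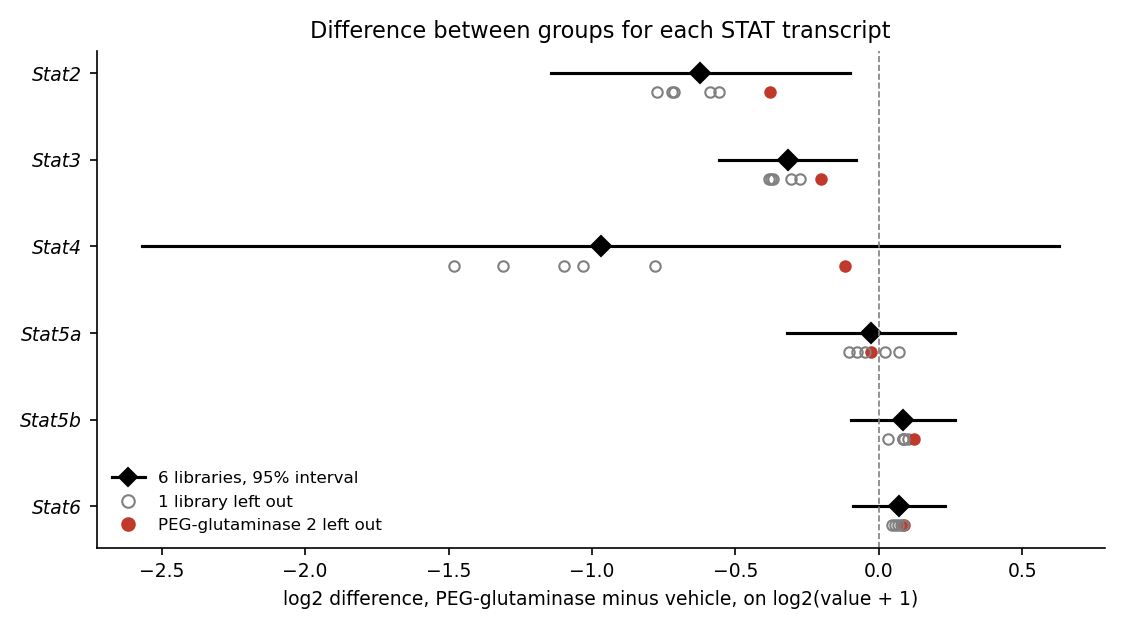
Log2 difference between PEG-glutaminase and vehicle libraries (horizontal axis, log2(value + 1) scale) for each STAT transcript (rows). Diamonds and lines give the limma estimate and 95% interval from all 6 libraries, open circles the estimate with 1 library left out and red circles the estimate without PEG-glutaminase 2. Stat4 moves from -0.97 to -0.12 without that library, while Stat2 and Stat3 stay below 0 in each leave-one-out fit.

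Levels of different genes were compared as normalized counts per kb of the longest annotated transcript. In PEG-glutaminase tumours the order was Stat6 at 733 ± 23.5 per kb, Stat3 at 375 ± 50.2, Stat2 at 287 ± 76.6, Stat5b at 182 ± 11.7, Stat5a at 61.9 ± 4.25 and Stat4 at 6.79 ± 4.87 (SD, n = 3). In vehicle tumours it was Stat6 at 698 ± 13.3 per kb, Stat3 at 466 ± 32.9, Stat2 at 432 ± 50.2, Stat5b at 171 ± 0.58, Stat5a at 63.3 ± 8.07 and Stat4 at 10.5 ± 2.64 (SD, n = 3). The order was the same in both groups, and the libraries of neighbours in it overlapped only for Stat3 and Stat2. Stat6 made up 44.7 ± 3.39% of the per-kb sum of these 6 transcripts in PEG-glutaminase tumours and 38.0 ± 1.98% in vehicle tumours, with 42.6% to 48.7% in the PEG-glutaminase libraries and 36.2% to 40.1% in the vehicle libraries. Stat2 made up 17.2 ± 3.16% in PEG-glutaminase tumours and 23.4 ± 1.64% in vehicle tumours (SD, n = 3 each). Shares of the same sum depend on each other, so the larger share of Stat6 includes the lower per-kb levels of Stat2 and Stat3. The level of Stat6 itself differed little, at 733 per kb against 698.

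Ratios between members within a library compare their differences directly. 15 pairs were compared by an exact two-sided permutation test, which with 3 against 3 cannot give a p below 0.1. The ratio did not overlap between groups in 6 pairs, those of Stat2 to Stat3, Stat5a, Stat5b and Stat6 and of Stat3 to Stat5b and Stat6, each at the smallest possible p (exact permutation p = 0.1, adjusted p = 0.25 over the 15 pairs). These 6 are not separate results, since each pair holds Stat2 or Stat3, which followed each other closely and did not overlap as single genes. The share of pairs without overlap among other genes was not computed. Stat2 stood at 0.444 of Stat6 in PEG-glutaminase tumours and 0.717 in vehicle tumours (geometric means of normalized counts, not per length), a log2 difference of -0.69. Stat3 stood at 0.815 of Stat6 in PEG-glutaminase tumours and 1.07 in vehicle tumours, a log2 difference of -0.39. Stat2 was also lower relative to Stat3, by a log2 difference of -0.30, and this was -0.18 without PEG-glutaminase 2. Stat5b relative to Stat6 differed by 0.02 on the log2 scale (exact permutation p = 0.7).

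Over the 6 libraries Stat2 and Stat3 followed each other closely. Both had their lowest level in PEG-glutaminase 2, followed by the other 2 PEG-glutaminase libraries, and then vehicle 2, vehicle 1 and vehicle 3. Stat4 had its extremes in the same libraries, PEG-glutaminase 2 and vehicle 3. Among 11251 genes outside the family whose mean reached 50 normalized counts, those most like Stat2 by Pearson correlation of log2(value + 1) over the 6 libraries were the semaphorin Sema4d (r = 0.997), the tyrosine kinase Ptk2b (r = 0.994) and the major vault protein gene Mvp (r = 0.993). For Stat3 they were Sp100, a nuclear body protein induced by interferon (r = 0.996), Gm4841 (r = 0.993) and the ubiquitin-like modifier Ubd (r = 0.991). For Stat4 they were Tox, a regulator of T cell differentiation (r = 0.998), Trim30d (r = 0.992) and Septin6 (r = 0.991). For Stat6 they were Prob1, N4bp2l2 and Ammecr1l (r of 0.991, 0.985 and 0.979), for Stat5b Taf1a, Rubcn and Trappc12 (0.972, 0.971 and 0.969) and for Stat5a Bclaf3, 0610030E20Rik and Tob1 (0.967, 0.963 and 0.956). These coefficients describe 6 points that include the difference between groups, and the nearest of many genes is close by selection.

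**Figure D3:**
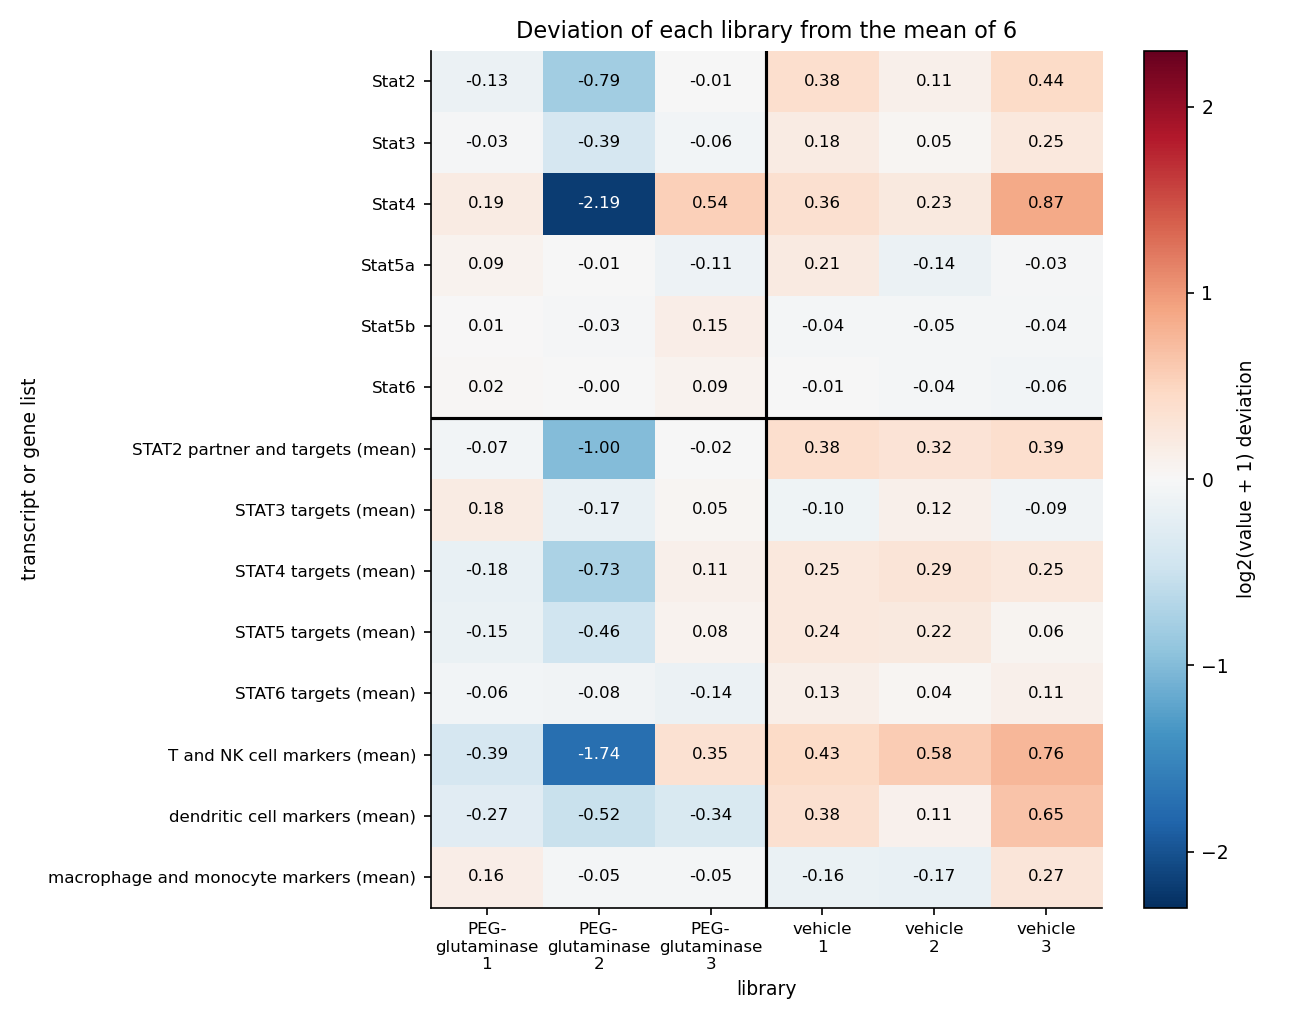
Deviation of each library (columns, PEG-glutaminase left and vehicle right) from the mean of the 6 libraries on the log2(value + 1) scale, for each STAT transcript (top rows) and for the mean of each gene list (lower rows). PEG-glutaminase 2 is lowest for Stat2 (-0.79), Stat3 (-0.39), Stat4 (-2.19), the STAT2 list and T and NK cell markers (-1.74). It is also lowest for the STAT3, STAT4 and STAT5 targets (-0.17, -0.73 and -0.46) and dendritic cell markers (-0.52), while its Stat5a, Stat5b and Stat6 lie close to the mean.

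The genes upstream of the STATs were described next, in lists read beside all tested genes, whose median log2 difference was -4.97e-05. Of all tested genes 18.4% had an unadjusted p under 0.05 by limma in either direction, and DESeq2 called 3.59%. Of 25 cytokine ligands 12 could be tested, 6 higher and 6 lower with a median of -0.09 (-0.21 without PEG-glutaminase 2). With limma 0 passed (4 at an unadjusted p under 0.05), and DESeq2 called 0. Ifng, which encodes interferon gamma, had 20.7, 11.9 and 21.6 normalized counts in PEG-glutaminase 1, 2 and 3, against 36.7, 31.4 and 51.0 in vehicle 1, 2 and 3, without overlap (log2 difference -1.11 ± 0.33; limma, adjusted p = 0.153). Il7 and Il15, growth and survival factors of lymphocytes that signal through STAT5, stood at -0.63 ± 0.17 and -0.69 ± 0.27 (limma, adjusted p of 0.135 and 0.235). Lif, a cytokine that signals through STAT3, stood at 0.25 ± 0.10 (limma, adjusted p = 0.242). Without PEG-glutaminase 2 Il15 stood at -0.43. Il6 and Il10 were below the filter, at 5.79 and 6.50 normalized counts in PEG-glutaminase tumours and 8.47 and 6.52 in vehicle tumours.

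Of 34 receptor chains 27 were tested, 8 higher and 19 lower with a median of -0.23 (-0.12 without PEG-glutaminase 2). With limma 0 passed and 5 had an unadjusted p under 0.05, beside 18.4% of all tested genes. DESeq2 called 2, Osmr higher and Il13ra1 lower. Il13ra1, the chain that binds interleukin 13 and leads to STAT6, had 440, 350 and 408 normalized counts in PEG-glutaminase 1, 2 and 3, against 585, 671 and 654 in vehicle 1, 2 and 3 (log2 difference -0.67 ± 0.11; limma, adjusted p = 0.111). Osmr, the oncostatin M receptor that leads to STAT3, had 212, 269 and 216 normalized counts in PEG-glutaminase 1, 2 and 3, against 154, 116 and 134 in vehicle 1, 2 and 3 (log2 difference 0.79 ± 0.16; limma, adjusted p = 0.113). Neither receptor overlapped between groups. Il7r and Il12rb1, receptor chains for interleukin 7 and interleukin 12, stood at -0.92 ± 0.32 and -0.82 ± 0.31 (limma, adjusted p of 0.194 and 0.234), and at -0.60 and -0.45 without PEG-glutaminase 2. The type I interferon receptor chain Ifnar1 stood at 0.01 ± 0.08 and the shared interleukin 6 family chain Il6st at -0.05 ± 0.10.

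The 4 Janus kinases, which phosphorylate the STATs, differed little. Jak1 averaged 2570 ± 142 normalized counts in PEG-glutaminase tumours and 2570 ± 44.5 in vehicle tumours, and Jak2 1434 ± 140 in PEG-glutaminase tumours and 1464 ± 72.6 in vehicle tumours (SD, n = 3 each). Their log2 differences were -0.00 ± 0.08 for Jak1, -0.03 ± 0.09 for Jak2, -0.16 ± 0.11 for Jak3, the lymphoid member, and 0.01 ± 0.10 for Tyk2. The list had 0 calls by limma, by DESeq2 and at an unadjusted p under 0.05.

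Of the 19 inhibitors of the pathway 9 were higher and 10 lower, with a median of -0.02 and 0 calls by limma (4 at an unadjusted p under 0.05) or DESeq2. Socs3, the feedback inhibitor induced by STAT3, had 1598, 1196 and 1677 normalized counts in PEG-glutaminase 1, 2 and 3, against 1867, 1968 and 2005 in vehicle 1, 2 and 3 (log2 difference -0.40 ± 0.12; limma, adjusted p = 0.155). Socs1, the inhibitor induced by interferon, had 697, 528 and 636 normalized counts in PEG-glutaminase 1, 2 and 3, against 751, 739 and 919 in vehicle 1, 2 and 3 (log2 difference -0.37 ± 0.13; limma, adjusted p = 0.181). Both lay below every vehicle library in every PEG-glutaminase library. Socs7 and the adaptor Sh2b3 stood higher, at 0.27 ± 0.09 and 0.20 ± 0.07, and Cish, the inhibitor induced by STAT5, stood at -0.45 ± 0.26 with overlapping groups (limma, adjusted p of 0.184, 0.199 and 0.377). Without PEG-glutaminase 2 Socs3 stood at -0.25 and Cish at -0.24.

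**Figure D4:**
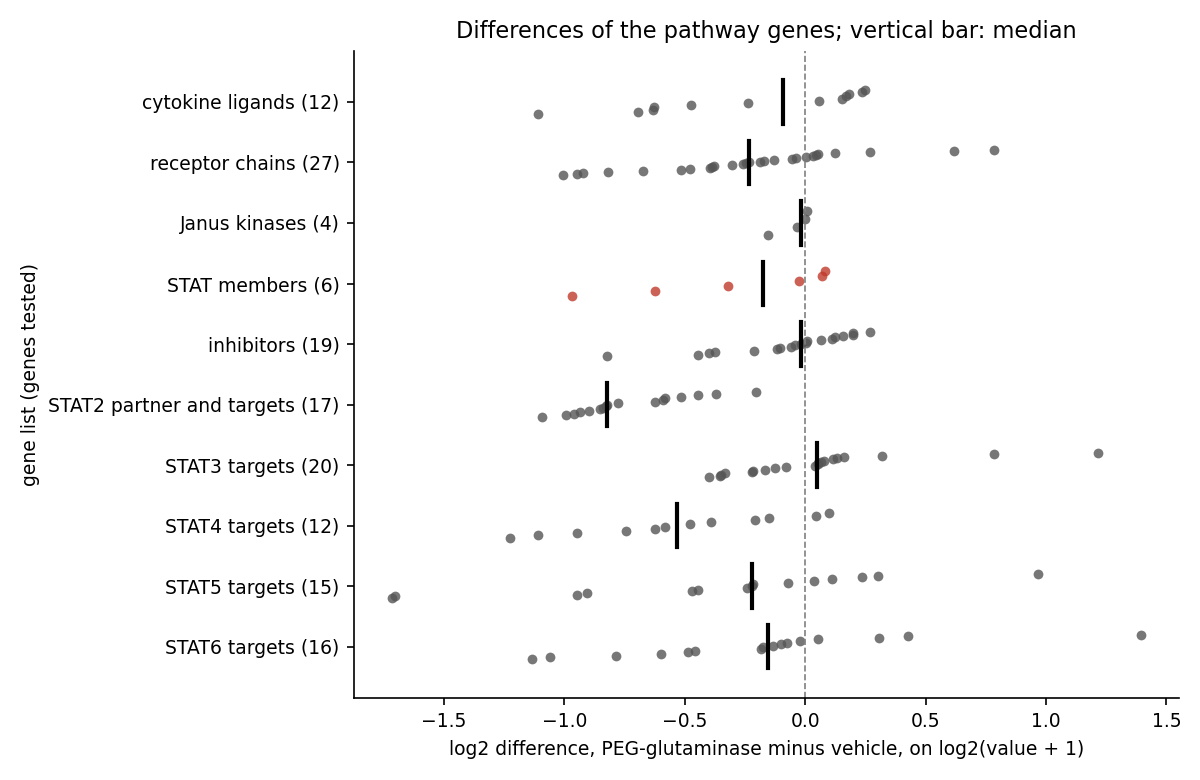
Log2 difference between PEG-glutaminase and vehicle libraries (horizontal axis, log2(value + 1) scale) for each tested gene of 10 lists (rows, with the number tested), the STAT members in red. Vertical bars give the list medians: that of the STAT2 partner and targets is -0.82, with all 17 genes below 0, that of the STAT3 targets is 0.05 and that of the Janus kinases is -0.02.

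Downstream, the lists of target genes differed in how they stood. Their counts too are read beside all tested genes, 18.4% at an unadjusted p under 0.05 by limma and 3.59% called by DESeq2. The STAT2 partner Irf9 and STAT2 targets were lower in 17 of 17 tested genes of 20 listed, with a median log2 difference of -0.82, beside 50% of all tested genes lower. With limma 0 passed (8 at an unadjusted p under 0.05), and DESeq2 called Irf9, Isg15, Ifit1 and Rtp4, all lower. The groups did not overlap, with PEG-glutaminase lower, in 14 of the 17, against 12.7% of all tested genes. Irf9, the DNA-binding partner of STAT2, had 912, 617 and 982 normalized counts in PEG-glutaminase 1, 2 and 3, against 1175, 1277 and 1259 in vehicle 1, 2 and 3 (log2 difference -0.59 ± 0.16; limma, adjusted p = 0.152). Rtp4, Isg15 and Mx1, antiviral or interferon-induced proteins, stood at -0.99 ± 0.26, -0.90 ± 0.29 and -0.62 ± 0.19 (limma, adjusted p of 0.161, 0.214 and 0.161). Without PEG-glutaminase 2 the list median was -0.45, again with 17 of 17 lower and 14 without overlap, where 16.5% of all tested genes were then lower without overlap. Rtp4 and Irf7, an interferon regulatory factor, then passed, at -0.69 and -0.62 (limma, adjusted p = 0.0342 for each), in a fit where 20 of 13557 tested genes passed. Neither passed with all 6 libraries (limma, adjusted p of 0.161 and 0.281). Without PEG-glutaminase 2 Irf9 stood at -0.38 and Isg15 at -0.57. Dendritic cell markers stood lower beside this list, in 13 of 15 genes with 2 higher and none at 0. They summed to 11452 to 24839 normalized counts in PEG-glutaminase libraries and 37821 to 58151 in vehicle libraries. Most of that sum came from Cd74, Bst2, H2-Aa, H2-Ab1 and H2-Eb1, at 17840, 6934, 6268, 5984 and 5797 normalized counts in vehicle tumours. The sum therefore describes mainly these genes, not the other markers, and is not a measure of the number of dendritic cells. Bst2 is in both lists, and the part of dendritic cells in the STAT2 list was not tested. The listing of these genes was made with earlier results of these tumours known.

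The STAT3 targets did not follow Stat3 as a list. Of 20 tested 11 were higher and 9 lower, with a median of 0.05 that turned to -0.04, -0.10 and -0.01 without PEG-glutaminase 1, PEG-glutaminase 3 and vehicle 1, and limma passed 0 (3 at an unadjusted p under 0.05) while DESeq2 called 1, Osmr, higher. Beside Osmr and Socs3, the kinase Pim1 stood at -0.22 ± 0.09 and the survival factor Bcl2l1 at -0.21 ± 0.10 (limma, adjusted p of 0.239 and 0.287), with Bcl2l1 at -0.11 without PEG-glutaminase 2. The STAT4 targets were lower in 10 of 12 with a median of -0.53, with 0 calls by limma (4 at an unadjusted p under 0.05) and 1 by DESeq2, Gadd45g, a stress-response gene that promotes interferon gamma production. Gadd45g had 714, 425 and 643 normalized counts in PEG-glutaminase 1, 2 and 3, against 786, 1115 and 812 in vehicle 1, 2 and 3 (log2 difference -0.62 ± 0.22; limma, adjusted p = 0.226). Il18rap, a chain of the interleukin 18 receptor, stood at -0.21 ± 0.07 and Il2ra, a chain of the interleukin 2 receptor, at -0.95 ± 0.40. Without PEG-glutaminase 2 the median of the STAT4 targets was -0.33 and Gadd45g stood at -0.40. The T and NK cell markers were lower beside this list, in 23 of 23 genes with a median of -1.19, or -0.59 without that library. None of them is a gene of the list, and their part in its values was not tested.

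The STAT5 targets were lower in 10 of 15 with a median of -0.22, beside the T and NK cell markers with their median of -1.19. With limma 0 passed (3 at an unadjusted p under 0.05), and DESeq2 called 1, Id2, lower. Id2, an inhibitor of helix-loop-helix factors needed by NK cells, had 689, 470 and 828 normalized counts in PEG-glutaminase 1, 2 and 3, against 1090, 1369 and 1189 in vehicle 1, 2 and 3 (log2 difference -0.91 ± 0.21; limma, adjusted p = 0.134). Gzmb, a protease of cytotoxic lymphocytes, stood at -1.70 ± 0.65, and at -1.11 without PEG-glutaminase 2. The list median without that library was -0.11. Gzmb and Prf1 are in both this list and the T and NK cell markers, and the part of these cells in the list was not tested.

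The STAT6 targets were lower in 12 of 16 with a median of -0.16 (-0.10 without PEG-glutaminase 2), and 0 passed by limma (4 at an unadjusted p under 0.05), while DESeq2 called 1, Mrc1, higher. Mrc1, the mannose receptor of alternatively activated macrophages, had 5036, 8955 and 4725 normalized counts in PEG-glutaminase 1, 2 and 3, against 2117, 2078 and 2655 in vehicle 1, 2 and 3, and stood highest in PEG-glutaminase 2 (log2 difference 1.40 ± 0.27; limma, adjusted p = 0.124). Without PEG-glutaminase 2 Mrc1 stood at 1.10 and passed (limma, adjusted p = 0.00909), in a fit where 20 of 13557 tested genes passed. Clec10a, Ccl24 and Il4ra were the other targets that stood higher, at 0.43, 0.31 and 0.06, and without PEG-glutaminase 2 they stood at 0.14, -0.12 and -0.02. Arg1, the arginase of the same macrophage state, had 2250, 756 and 2126 normalized counts in PEG-glutaminase 1, 2 and 3, against 1846, 2527 and 1120 in vehicle 1, 2 and 3, with overlapping groups (log2 difference -0.18, and 0.33 without PEG-glutaminase 2). Cdh1, Egr2 and Pdcd1lg2 stood at -1.06 ± 0.32, -0.46 ± 0.17 and -1.13 ± 0.46 (limma, adjusted p of 0.154, 0.219 and 0.238). Cdh1 had 31.07, 35.64 and 37.04 normalized counts in PEG-glutaminase 1, 2 and 3, against 124.6, 59.84 and 51.99 in vehicle 1, 2 and 3. The groups did not overlap, but the highest value was in vehicle 1, the library that stood apart in keratinocyte markers. The part of such cells in the Cdh1 values was not tested. Without PEG-glutaminase 2 Pdcd1lg2 stood at -0.57. Macrophage and monocyte markers overlapped between groups, at a sum of 56456 to 63768 normalized counts in PEG-glutaminase libraries and 48653 to 65914 in vehicle libraries over 16 genes, of which Ly6c2 was at 0 in 5 libraries and the others in none. Mrc1 is itself one of these markers.

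The authors' deposited table also holds a comparison of its own, in which the log2 fold change was -0.20 for Stat2, -0.13 for Stat3, -0.43 for Stat4, 0.15 for Stat5a, 0.11 for Stat5b and 0.07 for Stat6, with the direction not named in the header. Adjusted p in the authors' deposited table ran from 0.4745 to 0.798, with none given for Stat4. The mean signal in the authors' deposited table was within 0.1% of the mean of the 6 library columns for 4.03% of tested genes only, so that comparison was not computed from these 6 columns as they stand. The sign was that of the differences above for 5 of the 6 and the opposite for Stat5a.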

How the data were processed

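Per the labels' protocols, tumour RNA was selected by its poly-A tail and reverse transcribed from random primers. The deposited table gives an expression signal, read counts per BALB/cJ gene model divided by a size factor of the library, per the file headers and values. The submitters' processing notes list DESeq2, DESeq, featureCounts, STAR and FastQC with no version. Genome build, aligner settings and strandedness: not given in the sources used here. The deposited comparison holds log2 fold changes, a test score and p-values, per the file headers.

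The table has 40396 rows for 40303 gene models, and each model was used once. Whole reads were recovered, since 100% of non-zero values were whole multiples of 1 step per library within 0.01; for PEG-glutaminase 2, whose step lies near 1, this rests on the values alone. 2902 models without a symbol held 0.130% to 0.214% of reads. limma 3.58.1 in R 4.3.3 was run on log2(value + 1) for genes whose mean reached 10 normalized counts, with two-sided p-values adjusted over 13557 genes by Benjamini-Hochberg. edgeR 4.0.16, limma-voom and DESeq2 1.42.0 were run on the recovered reads. The limma step was tested on simulated data. Each tumour came from its own mouse, so p-values measure the spread between mice. Same-numbered libraries were not paired. Transcript lengths are those of the longest GENCODE M21 transcript, from an assembly other than the gene models. The members and lists were chosen with earlier results of these data known. Named genes are the 6 members, up to 4 genes of smallest p in each pathway list, a fixed few (the Janus kinases, Irf9, Socs1, Socs3 and Cish) and the 3 genes most like each member. Ifnar1, Il6st, Il6, Il10, Ifit1, Irf7, Prf1, Clec10a, Ccl24, Il4ra, Arg1, Cd3e, Cd4, Ly6c2, Icam1, Cd74, Bst2, H2-Aa, H2-Ab1 and H2-Eb1 were named after their values were seen.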

Additional observations from a re-analysis of the deposited data

How the results depend on the processing

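Stat2, Stat3, Stat4, Stat5b and Stat6 kept their direction under every alternative run: a pseudocount of 0.5 or 5, no filter on low genes, a minimum mean of 50 (Stat4 then untested), an adjusted p of 0.1, TMM scaling, edgeR, limma-voom, DESeq2, the replicate block and each library left out. The 2 filter settings, the replicate block and the adjusted p of 0.1 leave the estimate itself unchanged, so these could not have turned a direction. Leaving out 1 library put Stat2 at -0.77 to -0.38, Stat3 at -0.38 to -0.20, Stat4 at -1.48 to -0.12, Stat5a at -0.11 to 0.07, Stat5b at 0.03 to 0.12 and Stat6 at 0.04 to 0.09. Stat5a was 0.0713 without PEG-glutaminase 2 and vehicle 1 together, an alternative chosen after seeing the data, as was counting overlaps without PEG-glutaminase 2. DESeq2 called 1 member, Stat2 (-0.59); every other setting called 0. Of all tested genes limma called 5, against 136 with no filter, 9 at an adjusted p of 0.1, 1 with the replicate block, 0 with edgeR under either scaling (2550 and 2554 at an unadjusted p under 0.05), 487 with DESeq2, 0 to 25 with 1 library left out (0 when PEG-glutaminase 1, vehicle 1 or vehicle 2 was dropped, 20 for PEG-glutaminase 2 and 25 for PEG-glutaminase 3) and 3 without PEG-glutaminase 2 and vehicle 1. The cause was not tested. With the replicate block Stat2 stood at -0.62 (limma, adjusted p = 0.148). Same-numbered libraries deviated weakly in opposite directions (r of -0.22 to -0.129), and those of different number had r of -0.0129 to 0.192. Deviations centred within groups of 3 are tied together, so these values cannot decide whether the numbers mark pairs.

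The median of the cytokine ligands was 0.0593 with a mean of at least 50, which leaves fewer genes, -0.27 to -0.0725 with 1 library left out and -0.31 without PEG-glutaminase 2 and vehicle 1. That of the STAT6 targets was -0.10 with a mean of at least 50, -0.11 and -0.10 with edgeR under RLE and TMM scaling, -0.11 with DESeq2 and -0.29 to -0.10 with 1 library left out. Ratios whose sign turned with 1 library left out were those of Stat2 to Stat4 (-0.26 to 0.71), Stat3 to Stat4 (-0.0843 to 1.11) and Stat5b to Stat6 (-0.0111 to 0.0321). Medians near 0 also turned sign with 1 library left out: STAT3 targets (-0.10 to 0.12), Janus kinases (-0.10 to 0.02) and inhibitors (-0.05 to 0.01). Stat4 stood at -0.63 and -0.62 with edgeR under RLE and TMM scaling and at -0.63 with DESeq2. Depth limits Stat4, with at most 41 reads in a library.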
